A study of Homo sapiens with 6 samples.

Results

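The RAB small GTPases measured here were the probe sets whose gene symbol is RAB followed by a number and at most 1 letter, leaving out RAB25, RAB11A and RAB11B. On these arrays 62 probe sets matched the pattern, and 59 were kept after the 3 exceptions, of 21448 probe sets in all. Each of the 59 genes had 1 probe set, so no gene was averaged over several. The rule itself uses gene names and no measured value, though it was set with earlier results of these data known. RAB4B, also a RAB gene, has no annotated probe set and was not analysed here.

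RNA of 2 human colorectal cancer cell lines was compared on Clariom S arrays, 3 arrays of KM12SM and 3 of SW620. KM12SM was selected from the KM12 colorectal carcinoma line for its spread to the liver, and SW620 was established from cells of a lymph node metastasis. Both lines were grown untreated in DMEM with serum and antibiotics, and total RNA was hybridised. The paper describes KM12SM as highly and SW620 as poorly metastatic in liver, and assigns KM12 and SW620 cells to different molecular subtypes. The lines also come from different tumours. A difference between them cannot be assigned to metastatic capacity, metastatic site, molecular subtype, tumour of origin or culture history, which cannot be told apart. The study's methods describe the RNA replicates as independent, but separate cultures are not stated anywhere. The p-values therefore cover only the spread among these arrays, and that spread may be technical. In such bulk RNA, fewer cells with a transcript and less transcript per cell cannot be told apart.

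RAB proteins form the largest branch of the Ras superfamily of small GTPases and give each membrane compartment an address. An exchange factor loads the RAB with GTP on its membrane, the GTP form recruits effectors such as tethers, motors and fusion factors, and a GTPase-activating protein switches it off. GDP dissociation inhibitor then takes the prenylated protein back into the cytosol. In epithelial cells of the gut, RABs sort cargo between the apical and basolateral surfaces and run granule and exosome release.

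Values are the deposited log2 signals, and a difference is KM12SM minus SW620 on that scale, so 1 is a 2-fold change. A gene was called higher or lower in KM12SM where the Benjamini-Hochberg adjusted p of limma's moderated test over all probe sets was under 0.05. Array medians were 6.75 to 6.78 in KM12SM and 6.71 to 6.74 in SW620. Replicate 3 stood slightly apart in both lines, with correlations over all probe sets to the other replicates of 0.983 to 0.986 in KM12SM and 0.981 to 0.986 in SW620, against 0.992 between replicates 1 and 2. Of 9 colorectal epithelial markers, 5 were higher in KM12SM and VIL1 was lower, and their mean log2 signal per array was 10.10 to 10.39 in KM12SM and 8.89 to 8.95 in SW620. EPCAM averaged 11.92 in KM12SM and 11.74 in SW620, and KRT8 averaged 12.74 in KM12SM and 12.42 in SW620. Among 18 measured markers of leukocytes, fibroblasts, endothelium, hepatocytes and melanocytes, 2 were called, CD68 at 0.87 and MLANA at 0.50, both higher in KM12SM. Of these 18 markers, 12 had a mean at or above 5.12, the upper edge of the dimmest 25% of probe sets, among them COL1A2 at 7.99 in KM12SM and 8.31 in SW620 and VWF at 7.75 in KM12SM and 7.65 in SW620. PTPRC, PDGFRB, PECAM1, ALB, MITF and TYR were below it. The mean log2 signal per array of the leukocyte list was 5.97 to 6.10 in KM12SM and 5.70 to 5.85 in SW620, and that of the fibroblast list 6.28 to 6.51 in KM12SM and 6.50 to 7.05 in SW620. That of the endothelial, hepatocyte and melanocyte lists together spanned 4.71 to 6.42 in KM12SM and 4.59 to 6.41 in SW620. The epithelial markers did not move as a set. CDH17 at 4.95 and LGALS4 at 4.07 had the largest differences, VIL1 was at -0.81, and EPCAM at 0.18, KRT8 at 0.32 and KRT19 at 0.38 were not called. The part of any of the markers above in the RAB values was not tested.

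Of the 59 RAB genes, 10 were higher in KM12SM, 9 were lower and 40 were not called. The 19 called genes make 32.2% of the RABs, and 25% of all probe sets, 5362 of 21448, were called in this comparison. By direction, 16.9% of the RABs were higher and 15.3% lower, with 12.6% and 12.4% of all probe sets. The median difference of the RABs was 0.09 and that of all probe sets 0.01, and the median absolute difference was 0.34 in the RABs and 0.26 in all probe sets. In 28 RABs, 47.5%, no array of one line reached into the range of the other line, as in 37.7% of all probe sets. A call with at least a 2-fold difference was reached by 11 of the 59 RABs, and by 2242 of 21448 probe sets, 10.5%. Only 6 of the 59 RABs were among the dimmest 25% of probe sets. With these dim probe sets left out, 10 of 53 RABs were higher and 8 lower, and 5206 of 16089 probe sets were called. The shares of all probe sets given here and below include the dim ones, so they are not matched to the RABs in signal. Leaving out replicate 3 of both lines, a choice made after seeing the data, gave 12 higher and 11 lower, and 6234 of all probe sets called.

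The sequences before the start sites of 5 RABs are shown because these genes have large differences between the lines. RAB39B, whose difference is larger than those of RAB3B and RAB31, has no entry in the promoter table. They are the 250 bases upstream of the first start site listed by RefSeq on GRCh38.p14, 5′ to 3′ on the strand of the gene. For RAB27B they cover chr18:54717607-54717856 (plus strand), for RAB19 chr7:140403808-140404057 (plus), for RAB3B chr1:51990701-51990950 (minus), for RAB30 chr11:83071898-83072147 (minus) and for RAB31 chr18:9708051-9708300 (plus). Capitals mark every match on either strand to the E-box CACCTG, the GC box GGGCGG, the CCAAT box CCAAT and the TATA box TATAAA.
RAB27B: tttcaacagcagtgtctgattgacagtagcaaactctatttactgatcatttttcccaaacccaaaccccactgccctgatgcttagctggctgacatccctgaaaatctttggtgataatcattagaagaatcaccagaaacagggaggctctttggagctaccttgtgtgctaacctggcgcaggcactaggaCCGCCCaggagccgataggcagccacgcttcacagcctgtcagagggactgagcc
RAB19: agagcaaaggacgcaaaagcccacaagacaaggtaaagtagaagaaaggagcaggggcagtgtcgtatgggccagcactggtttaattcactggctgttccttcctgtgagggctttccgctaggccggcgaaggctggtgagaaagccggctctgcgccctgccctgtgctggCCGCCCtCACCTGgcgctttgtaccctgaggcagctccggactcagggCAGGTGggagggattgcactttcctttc
RAB3B: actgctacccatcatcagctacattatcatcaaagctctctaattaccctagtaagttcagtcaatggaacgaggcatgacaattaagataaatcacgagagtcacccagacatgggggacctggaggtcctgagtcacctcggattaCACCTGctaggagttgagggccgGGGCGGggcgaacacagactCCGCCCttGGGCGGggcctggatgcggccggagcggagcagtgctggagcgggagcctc
RAB30: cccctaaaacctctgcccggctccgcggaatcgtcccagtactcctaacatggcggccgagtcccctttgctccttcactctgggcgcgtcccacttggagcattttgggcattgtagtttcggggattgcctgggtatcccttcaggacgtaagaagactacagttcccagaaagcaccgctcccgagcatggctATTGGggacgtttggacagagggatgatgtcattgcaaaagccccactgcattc
RAB31: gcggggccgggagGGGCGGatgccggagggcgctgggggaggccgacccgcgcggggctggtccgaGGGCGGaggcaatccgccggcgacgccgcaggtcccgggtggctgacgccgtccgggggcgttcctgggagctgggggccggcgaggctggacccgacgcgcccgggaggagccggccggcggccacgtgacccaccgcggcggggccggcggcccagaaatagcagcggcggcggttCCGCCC
The RAB27B sequence holds 1 GC box on the reverse strand. RAB19 holds 1 GC box and 2 E-boxes, and RAB3B holds 1 E-box and 3 GC boxes. RAB30 holds 1 CCAAT box on the reverse strand and RAB31 holds 3 GC boxes. RAB27B has 2 starts listed and RAB30 has 3, so other promoters of these genes are not shown.

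RefSeq promoters of this kind were at hand for 46 of the 59 RABs. The GC box occurred in 36 of the 46, against 42.3% of 27305 promoters of the same length, and in 7 of 8 higher, 7 of 8 lower and 22 of 30 not called RABs. The E-box occurred in 7 of the 46, against 17.5% of promoters, in 2 of 8 higher, 1 of 8 lower and 4 of 30 not called RABs. The CCAAT box occurred in 11 of the 46, against 33%, and the TATA box in 4 of the 46, against 11.1%, all 4 in RABs that were not called. Median GC content was 59.4% in higher, 67.6% in lower and 65.0% in not called RABs, against 58.0% in all promoters. For each motif the counts in higher and lower RABs differed by at most 1 of 8 genes, and a match is a run of letters and not a site of binding.

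The 13 exocytic and secretory granule RABs act in the last steps from the Golgi or a granule to the plasma membrane. In this group 5 were higher in KM12SM, 0 were lower and 8 were not called, with a median difference of 0.41. Over all probe sets 12.6% were higher and 12.4% lower, a share at which few lower calls fall in 13 genes, so the 0 is not read as a result. At an unadjusted limma p under 0.05, 6 of the 13 were higher and 0 lower, and 34.3% of all probe sets passed in either direction. The t-test per probe set, which called 3 of the 59 RABs lower in all, kept 4 of the 5 higher calls here and lost RAB8B. That test called 3038 of all probe sets, against 5362 with limma. RAB27B had the largest difference of the 59 genes, though not of all RABs on the array, since RAB25, left out by the rule, differed by 5.63 (SE 0.21, limma adjusted p = 2.27e-11). RAB27B docks secretory granules and multivesicular bodies at the plasma membrane and takes part in exosome release. Its log2 signal was 8.07, 8.10 and 8.35 in KM12SM, against 4.40, 4.77 and 4.69 in SW620. All 3 KM12SM arrays were far above the SW620 arrays, which lay below 5.12, in the dimmest 25% of probe sets. The difference was 3.55 (SE 0.18, limma adjusted p = 3.69e-10), or 11.7-fold higher in KM12SM, and since the SW620 signal was near background this fold may understate the change. Its close relative RAB27A, which serves melanosomes and the lytic granules of T cells, read 6.44, 6.88 and 6.54 in KM12SM and 6.38, 6.46 and 5.60 in SW620. These ranges overlapped, and the difference of 0.47 was not called (limma adjusted p = 0.147).

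Of the 4 RAB3 genes, GTPases of regulated exocytosis, 3 were higher in KM12SM. RAB3B, found on secretory vesicles of endocrine and epithelial cells, had 6.32, 6.24 and 6.33 in KM12SM, against 5.05, 4.40 and 4.77 in SW620. RAB3D, known from zymogen granules of exocrine cells, had 7.63, 7.99 and 7.50 in KM12SM, against 6.07, 6.44 and 6.51 in SW620. RAB3A, the synaptic vesicle member, had 7.52, 7.64 and 7.95 in KM12SM, against 6.72, 6.20 and 6.53 in SW620. For these genes every KM12SM array was above every SW620 array. The differences were 1.56 for RAB3B (SE 0.19, limma adjusted p = 1.03e-05), 1.37 for RAB3D (SE 0.19, limma adjusted p = 4.65e-05) and 1.22 for RAB3A (SE 0.19, limma adjusted p = 0.000138). RAB3C, mainly a neuronal gene, read 5.33, 5.18 and 5.15 in KM12SM and 5.33, 5.15 and 5.25 in SW620, with overlapping arrays and a difference of -0.02 (limma adjusted p = 0.941). The mean of RAB3B in SW620 was below 5.12, so its fold is also limited by background.

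The fifth called gene of this group was RAB8B, a relative of RAB8A in polarised and ciliary transport, with a difference of 0.61 (SE 0.18, limma adjusted p = 0.0204). Leaving out replicate 1 or replicate 3 of either line ended this call, with limma adjusted p of 0.0555 to 0.0646. The differences of the 8 genes of this group that were not called ran between -0.18 and 0.47. Among them were RAB8A at 0.13 and RAB10 at 0.12, both carriers of cargo to the plasma membrane. RAB13, a tight junction RAB, differed by 0.41 and its arrays did not overlap, but its limma adjusted p was 0.108.

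**Figure D1:**
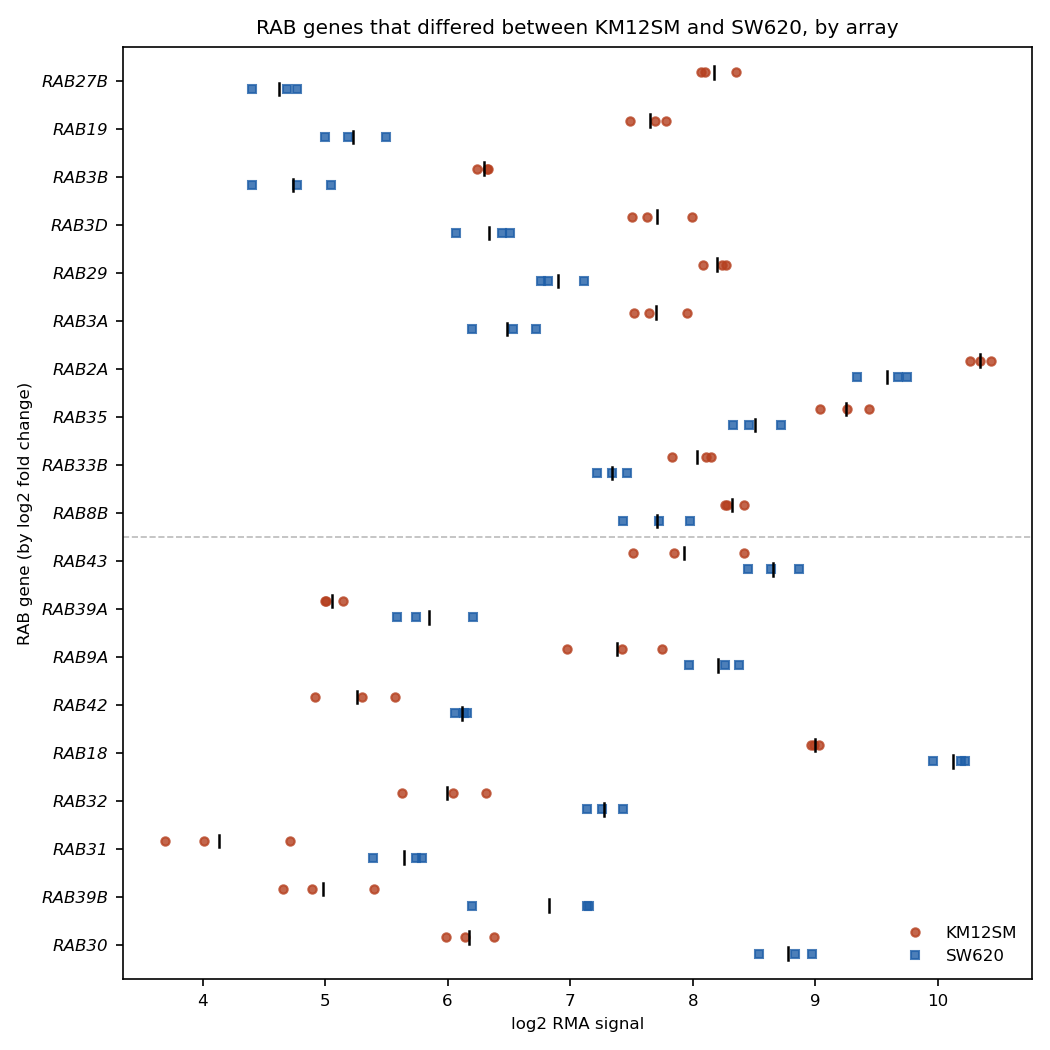
Log2 signal on each array (horizontal axis) of the 19 called RAB genes, 1 gene per row, with KM12SM and SW620 arrays as separate points, a black tick for the mean of each line and genes ordered by their difference. In each row the points of the lines do not overlap, with RAB27B at 8.07 to 8.35 in KM12SM against 4.40 to 4.77 in SW620 and RAB30 at 5.99 to 6.38 in KM12SM against 8.54 to 8.97 in SW620.

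The RABs of the endoplasmic reticulum and Golgi, which move cargo between these compartments and keep their shape, went in both directions. Of 17 genes, 3 were higher in KM12SM, 5 were lower and 9 were not called, with a median difference of 0.01. The higher share was 17.6% and the lower 29.4%, against 12.6% and 12.4% of all probe sets. RAB19, a Golgi RAB with few described functions, had 7.78, 7.69 and 7.49 in KM12SM, against 5.50, 5.19 and 5.00 in SW620. The KM12SM arrays were all above those of SW620, and the difference was 2.42 (SE 0.18, limma adjusted p = 4.76e-08), or 5.36-fold higher in KM12SM. The SW620 mean of RAB19, 5.23, was little above 5.12, so this fold may be limited by background. RAB2A, needed between the endoplasmic reticulum and the Golgi, had 10.43, 10.26 and 10.34 in KM12SM, against 9.67, 9.75 and 9.34 in SW620. Its lines did not overlap, and it was 1.69-fold higher in KM12SM (log2 difference 0.76, SE 0.17, limma adjusted p = 0.00389). RAB33B, a Golgi RAB that binds the autophagy protein ATG16L1, was higher by 0.69 (SE 0.17, limma adjusted p = 0.00673).

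RAB30 had the largest fall of the 59 genes. It is a Golgi RAB that helps keep the stacks intact. Its log2 signal was 6.14, 6.38 and 5.99 in KM12SM, against 8.97, 8.83 and 8.54 in SW620. Every KM12SM array was more than 2 log2 units below every SW620 array, and RAB30 was 6.11-fold lower in KM12SM (log2 difference -2.61, SE 0.18, limma adjusted p = 2.01e-08). RAB39B, a brain-enriched gene mutated in X-linked intellectual disability with early parkinsonism, had 4.89, 4.66 and 5.40 in KM12SM, against 7.14, 7.15 and 6.20 in SW620. The lowest SW620 array was still above the highest of KM12SM, but the spread within the lines was the widest of the called RABs, and the difference was -1.85 (SE 0.25, limma adjusted p = 4.13e-05). Its relative RAB39A had 5.01, 5.00 and 5.15 in KM12SM, against 6.21, 5.74 and 5.59 in SW620, without overlap and with a smaller difference of -0.79 (SE 0.19, limma adjusted p = 0.00482). The KM12SM means of RAB39A and RAB39B were below 5.12, so their folds are limited by background.

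RAB18, which acts at the endoplasmic reticulum and lipid droplets and is lost in Warburg Micro syndrome, had 8.99, 8.96 and 9.03 in KM12SM, against 10.19, 10.22 and 9.96 in SW620. Its lines were well apart, and it was 2.19-fold lower in KM12SM (log2 difference -1.13, SE 0.16, limma adjusted p = 7.74e-05). RAB43, a RAB of the Golgi, was lower by a log2 difference of -0.73 (SE 0.22, limma adjusted p = 0.0223). This call ended when KM12SM replicate 2, KM12SM replicate 3, SW620 replicate 1 or SW620 replicate 3 was left out, with limma adjusted p of 0.0519 to 0.124. RAB43 overlaps the read-through gene ISY1-RAB43, whose signal cannot be told apart from it here. The 9 genes that were not called differed by -0.45 to 0.38. RAB1A and RAB1B, the main RABs from the endoplasmic reticulum to the Golgi, differed by 0.16 and 0.33. RAB2B, the paralogue of RAB2A, was at -0.45 with no overlap between lines but a limma adjusted p of 0.0681, and without SW620 replicate 3 this was 0.0285. It also passed under quantile normalization, at 0.0277, and median centring, at 0.0481. RAB6A at 0.38 and RAB6C at 0.34 also had no overlap and no call, and since RAB6A, RAB6C and RAB6D are near-identical copies their probe sets may share signal.

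**Figure D2:**
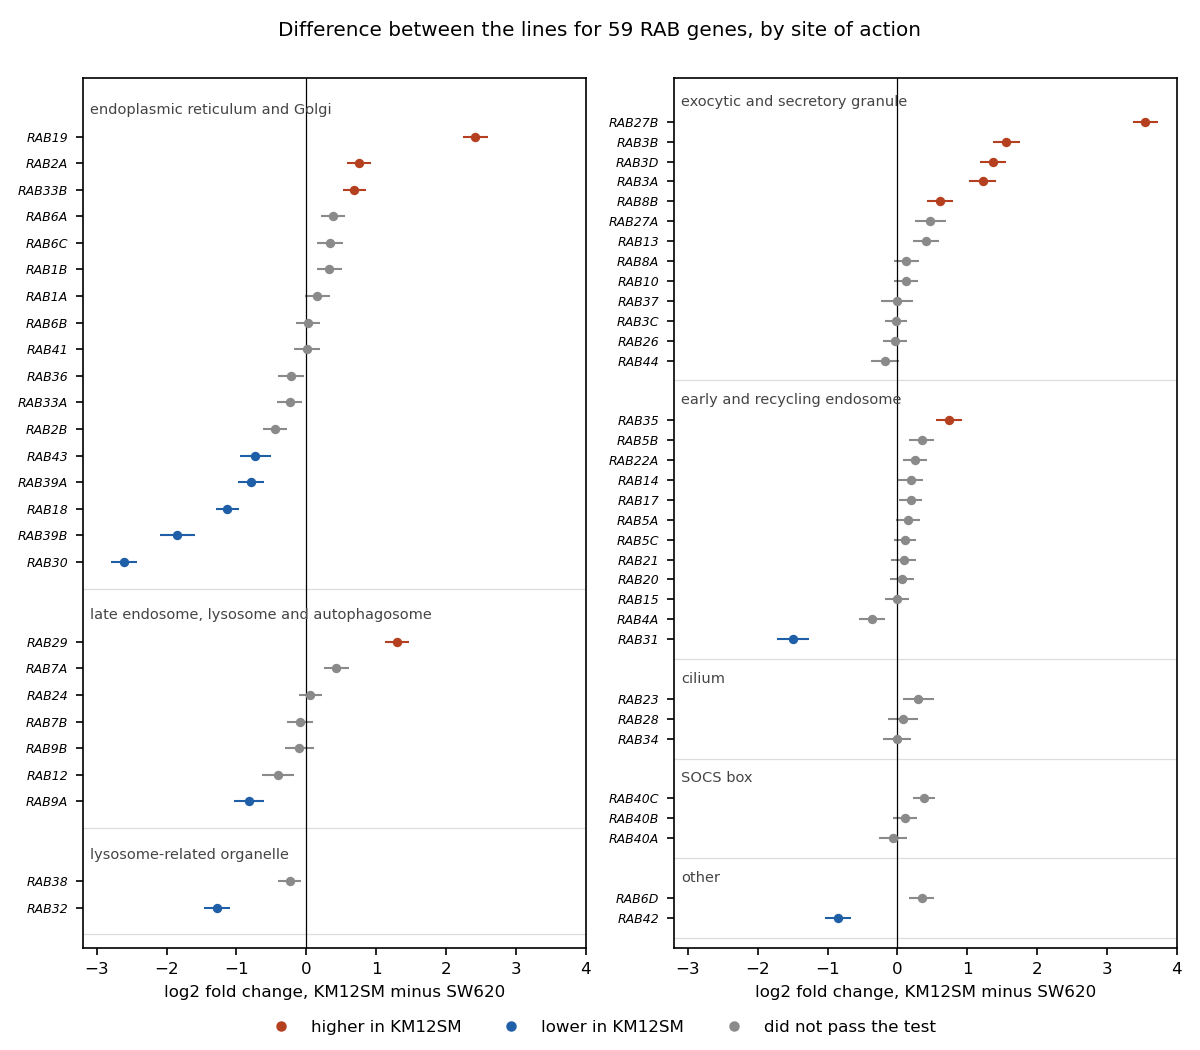
Log2 difference KM12SM minus SW620 (horizontal axis) with its standard error for all 59 RAB genes, grouped by the compartment where each acts, red for genes called higher in KM12SM, blue for lower and grey for not called. The exocytic group holds 5 red and 0 blue points, and the endoplasmic reticulum and Golgi group holds 3 red and 5 blue. Of all probe sets 12.6% were higher and 12.4% lower.

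Among the 12 RABs of early and recycling endosomes, 1 was higher in KM12SM, 1 was lower and 10 were not called. Thus 16.7% were called, against 25% of all probe sets. RAB35, which returns receptors to the plasma membrane and acts in cytokinesis, had 9.04, 9.26 and 9.44 in KM12SM, against 8.46, 8.72 and 8.33 in SW620. All KM12SM arrays were above those of SW620 and the difference was 0.74 (SE 0.18, limma adjusted p = 0.00567). RAB31, which acts between the trans-Golgi network and endosomes, had 3.69, 4.01 and 4.71 in KM12SM, against 5.74, 5.79 and 5.39 in SW620. The lines did not overlap and the difference was -1.50 (SE 0.23, limma adjusted p = 0.000127), though its mean over all arrays, 4.89, was below 5.12. The RAB5 genes, the core RABs of early endosomes, were not called, with differences of 0.15 for RAB5A, 0.35 for RAB5B and 0.11 for RAB5C. RAB4A, of fast recycling, differed by -0.36 and was not called, but without SW620 replicate 3 it was at -0.54 (limma adjusted p = 0.0396). RAB17, an epithelial RAB of recycling and transcytosis, differed by 0.19. The 10 genes not called ran between -0.36 and 0.35.

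The late endosome, lysosome and autophagosome RABs numbered 7, of which 1 was higher in KM12SM, 1 was lower and 5 were not called. The called share, 28.6%, was near the 25% of all probe sets. RAB29, which recruits the kinase LRRK2 to the Golgi and to stressed lysosomes, had 8.27, 8.24 and 8.08 in KM12SM, against 6.76, 7.11 and 6.82 in SW620. The KM12SM arrays were close together and all above SW620, and RAB29 was 2.46-fold higher in KM12SM (log2 difference 1.30, SE 0.17, limma adjusted p = 2.73e-05). RAB9A, which returns mannose 6-phosphate receptors from late endosomes to the trans-Golgi network, had 7.42, 7.75 and 6.97 in KM12SM, against 8.26, 8.38 and 7.97 in SW620. Its lines were apart by a small margin and it was 1.77-fold lower in KM12SM (log2 difference -0.82, SE 0.21, limma adjusted p = 0.0073). RAB7A, the main RAB of late endosomes and lysosomes, differed by 0.43 with no overlap between lines and was not called (limma adjusted p = 0.0956). Without KM12SM replicate 3 its limma adjusted p was 0.0282. RAB12, at -0.40 in the main comparison, likewise passed without KM12SM replicate 3, at 0.0458.

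RAB32 and RAB38 serve lysosome-related organelles such as melanosomes and platelet granules. RAB32 had 6.04, 6.31 and 5.63 in KM12SM, against 7.26, 7.43 and 7.14 in SW620. All KM12SM arrays were below those of SW620, and RAB32 was 2.43-fold lower (log2 difference -1.28, SE 0.19, limma adjusted p = 0.000106). RAB38 averaged 3.27 in KM12SM and 3.52 in SW620, both below 5.12, and was not called at -0.24. RAB42, for which no compartment was assigned, had 5.57, 4.92 and 5.30 in KM12SM, against 6.06, 6.13 and 6.16 in SW620, without overlap and with a difference of -0.85 (SE 0.19, limma adjusted p = 0.00275). Its KM12SM mean, 5.26, was little above 5.12, so this difference may be limited by background. None of the 3 RABs of cilia was called, RAB23, RAB28 and RAB34, at -0.01 to 0.30, and 0 had an unadjusted limma p under 0.05. None of the 3 RAB40 genes was called either, RABs with a SOCS box that join ubiquitin ligases, at -0.06 to 0.38, though RAB40C, at 0.38, had an unadjusted limma p of 0.0336. The t-test per probe set called 0 of these 6 genes. With 25% of all probe sets called by limma, 0 of so few genes is not read as a result. In all, 6 of the 59 RAB probe sets had a mean below 5.12, which limits the differences these can show. Of these 6, RAB31 was called. The edge at 5.12 is a percentile and not a limit of detection. Markers of other cell types such as VWF and COL1A2 also read above it, so a RAB above 5.12 may still be near background.

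Relatives of the called RABs were set against them within each array. For 10 pairs in which 1 gene was called and a paralogue was not, the paralogue's log2 signal was subtracted on each array, and the shift of this value between lines is the difference of the 2 log2 differences. The level of one probe set against another has no meaning of its own, so only the shift is read. RAB27B minus RAB27A was 1.63, 1.22 and 1.81 in KM12SM, against -1.98, -1.69 and -0.91 in SW620, a shift of 3.08. The lines were thus far apart in the RAB27 pair. The shifts for RAB3B, RAB3D and RAB3A against RAB3C were 1.58, 1.39 and 1.24. RAB3C averaged 5.22 in KM12SM and 5.24 in SW620, little above 5.12, so these shifts carry mostly the differences of the other RAB3 genes. They were 1.21 for RAB2A against RAB2B, 0.93 for RAB33B against RAB33A and 0.48 for RAB8B against RAB8A. Negative shifts were seen for RAB31 against RAB22A at -1.76 and for RAB32 against RAB38 at -1.04. RAB38 was below 5.12 in both lines, as RAB9B was, so a shift against either carries mostly the difference of RAB32 or RAB9A. In each of these 9 pairs the KM12SM and SW620 values were fully separate, while RAB9A against RAB9B, at -0.72, overlapped. An exact two-sided permutation test over the 20 splits gave p = 0.1 for the 9 pairs, the smallest it can give with 3 arrays a line, and 0.3 for RAB9A, with adjusted values over the 10 pairs of 0.111 and 0.3. The permutation test therefore cannot reach 0.05 for a single pair, and the pairs were picked for a difference in call.

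**Figure D3:**
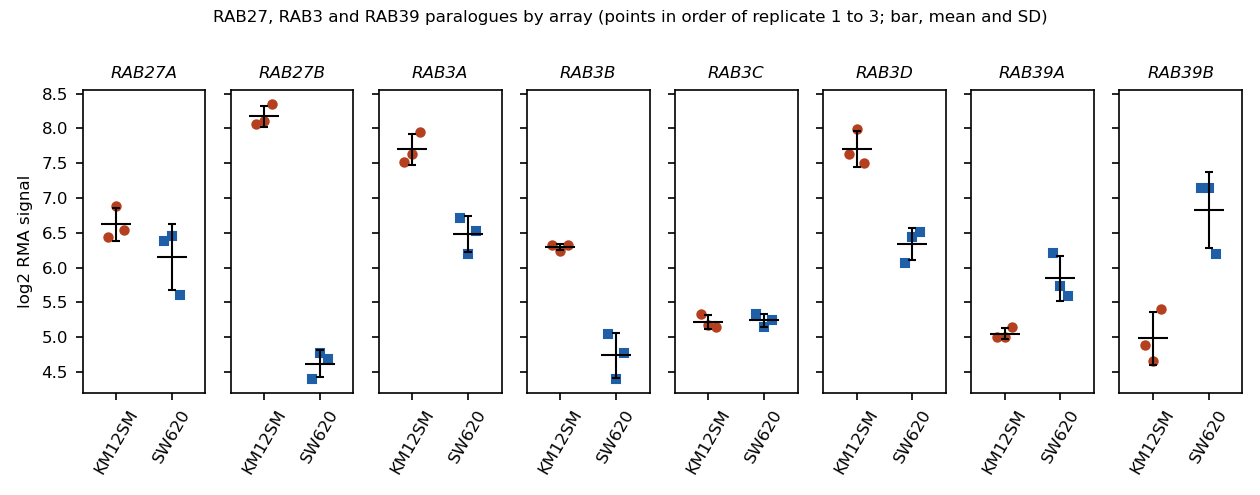
Log2 signal on each array (vertical axis) of the RAB27, RAB3 and RAB39 genes, with KM12SM left of SW620, points for the 3 replicates and bars for the mean and SD. RAB27B, RAB3A, RAB3B and RAB3D sit higher in KM12SM and RAB39A and RAB39B lower, while the points of RAB27A and RAB3C overlap between the lines.

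The proteins that switch and read RABs were taken as 4 lists, of which 126 genes had a probe set. In KM12SM 27 of these were higher (21.4%) and 15 lower (11.9%), against 12.6% and 12.4% of all probe sets, and 84 were not called, with a median difference of 0.09. The lower count moved with single arrays, as it was 6 without KM12SM replicate 1, 6 without SW620 replicate 1 and 10 without KM12SM replicate 2. Calls over all probe sets also fell in these settings, from 5362 to 4182, 4099 and 4450 in that order. Of the 126 genes 7 were among the dimmest 25% of probe sets. With dim probe sets left out, 26 of 119 were higher and 15 lower, and 5206 of 16089 probe sets were called. The called shares of the single lists below are set against all probe sets, dim ones included, and are not read as an excess. Of 5 chaperone and prenylation genes 1 was called. This was RABAC1, the prenylated RAB acceptor, at 0.54 (SE 0.18, limma adjusted p = 0.0436), which lost its call when any 1 of the KM12SM replicates or SW620 replicate 1 or 2 was left out, at 0.0581 to 0.184, and under quantile normalization, at 0.0735, or median centring, at 0.0611. GDI2, a GDP dissociation inhibitor, was not called, at 0.37 (limma adjusted p = 0.177).

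Of 35 exchange factors 7 were higher in KM12SM, 4 were lower and 24 were not called, with a median difference of 0.08. Calls made 31.4% of this list, against 25% of all probe sets. DENND5A, an exchange factor for RAB39, had 6.52, 6.29 and 6.01 in KM12SM, against 8.62, 8.79 and 8.34 in SW620. It was lower on every KM12SM array, with a difference of -2.31 (SE 0.19, limma adjusted p = 1.38e-07). DENND4C, which acts on RAB10, was higher by 2.02 (SE 0.20, limma adjusted p = 1.18e-06). DENND2D, of the DENN family, was higher by 1.86 (SE 0.19, limma adjusted p = 2.06e-06) and DENND1B, an exchange factor for RAB35, by 1.29 (SE 0.21, limma adjusted p = 0.000252). MADD, an exchange factor for RAB3 and RAB27, was named after its value was seen, differed by 0.21 and was not called (limma adjusted p = 0.626). Without KM12SM replicate 3 its difference was 0.58 (limma adjusted p = 0.0279).

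Of 32 GTPase-activating proteins 8 were higher in KM12SM, 3 were lower and 21 were not called, with a median difference of 0.17. Calls made 34.4% of this list, against 25% of all probe sets. TBC1D30, which acts on RAB8, had 7.92, 7.93 and 7.20 in KM12SM, against 4.62, 5.23 and 4.37 in SW620. The lines were far apart and the difference was 2.94 (SE 0.24, limma adjusted p = 1.39e-07). TBC1D9, of the same TBC domain family, had 6.31, 6.45 and 6.36 in KM12SM, against 3.97, 3.52 and 3.91 in SW620, a difference of 2.57 (SE 0.18, limma adjusted p = 1.66e-08). Both were near background in SW620. RABGAP1L was higher by 1.89 (SE 0.26, limma adjusted p = 4.51e-05) and TBC1D4, also called AS160 and a brake on RAB10 in insulin-regulated glucose transport, by 1.65 (SE 0.20, limma adjusted p = 1.32e-05).

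Of 54 effectors 11 were higher in KM12SM, 8 were lower and 35 were not called, with a median difference of -0.01. Calls made 35.2% of this list, against 25% of all probe sets. MYO5A, an actin motor that RAB27A recruits through melanophilin, had 6.11, 5.83 and 6.35 in KM12SM, against 8.57, 8.47 and 8.09 in SW620. It was lower on every KM12SM array, with a difference of -2.28 (SE 0.19, limma adjusted p = 1.95e-07). OSBPL1A, a RAB7 effector that positions late endosomes by their cholesterol content, was higher by 2.23 (SE 0.21, limma adjusted p = 8.57e-07). RAB11FIP2, a RAB11 effector, had a difference of -1.34 (SE 0.18, limma adjusted p = 2.92e-05).

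SYTL2, a synaptotagmin-like protein that binds RAB27 and tethers granules to the plasma membrane, had 8.04, 7.53 and 7.90 in KM12SM, against 6.63, 6.19 and 6.04 in SW620. It was higher on every KM12SM array, by 1.54 (SE 0.20, limma adjusted p = 2.32e-05). The RAB27 binders on the effector list, SYTL2 among them, were set together after their values were seen. Of these 11 genes 3 were higher in KM12SM, 1 was lower and 7 were not called, with a median difference of -0.02. The called share was 36.4%, against 25% of all probe sets. Beside SYTL2 the higher genes were melanophilin, MLPH, at 1.32 (SE 0.20, limma adjusted p = 8.61e-05) and EXPH5, at 0.61 (SE 0.18, limma adjusted p = 0.0177). The lower gene was RPH3AL, which also binds RAB3, at -0.50 (SE 0.17, limma adjusted p = 0.0358). EXPH5 and RPH3AL lost their calls when single replicates were left out, at limma adjusted p of 0.0501 to 0.0659 for EXPH5 and of 0.0589 to 0.148 for RPH3AL. The 7 that were not called, SYTL1, SYTL3, SYTL4, SYTL5, MYRIP, UNC13D and RPH3A, differed by -0.24 to 0.32. The myosins MYO5B and MYO5C, motors of recycling and secretory vesicles in epithelia and also named after their values were seen, were higher by 1.22 (SE 0.18, limma adjusted p = 9.14e-05) and 0.75 (SE 0.17, limma adjusted p = 0.00386), where MYO5A was lower.

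**Figure D4:**
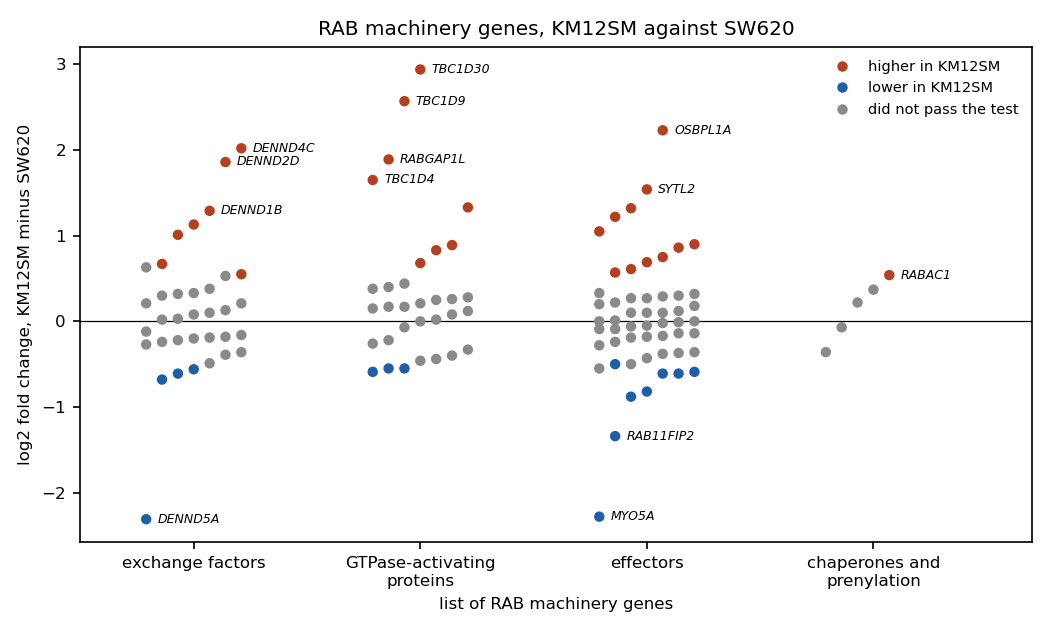
Log2 difference KM12SM minus SW620 of 126 RAB machinery genes in 4 lists, 1 point per gene, coloured by call, with the 13 genes named by rule labelled. TBC1D30 at 2.94, TBC1D9 at 2.57 and OSBPL1A at 2.23 lie furthest toward KM12SM, and DENND5A at -2.31 and MYO5A at -2.28 furthest toward SW620.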

How the data were processed

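The values of 3 KM12SM and 3 SW620 Clariom S arrays were read, and sample titles gave each array's line and replicate. The authors deposited RMA values on the log2 scale, made with Transcriptome Analysis Console (version not given in the sources used here) and rounded to 2 decimals. These log2 values were used as deposited. RMA summarises the probes of a gene to 1 value and compresses differences near background. There are no counts behind array signals, and the number of arrays, 3 a line, limits the precision. Of 21448 probe sets, 17709 carried 1 gene symbol in the platform annotation, 0 carried several and 3739 were unnamed here. The columns held 0 samples outside the mapping.

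KM12SM minus SW620 was fitted over all probe sets with limma 3.58.1 (lmFit and eBayes, two-sided) in R 4.3.3, with Benjamini-Hochberg adjustment, a threshold of 0.05, no filter and no replicate block, and the script was tested on simulated data. Dim probe sets were those with a mean in the lowest 25% of probe sets, below 5.12. RABs were grouped by compartment from general knowledge, and members and lists were chosen with earlier results of these data known. The text gives array values for the 8 called RABs with the largest rises and the 8 with the largest falls, names the other called RABs, and names up to 4 called genes with the largest differences in each machinery list. MADD, MLPH, EXPH5, RPH3AL, MYO5B, MYO5C and the 7 uncalled RAB27 binders were named outside that rule, as RAB25 was. Some listed machinery genes matched no probe set by symbol and were not analysed here. Promoter letters are from RefSeq. Alternatives were quantile normalization, median centring, leaving out dim probe sets, a trend with robust variances, array weights, a t-test, the replicate block, the mean over probe sets, each replicate left out in turn and replicate 3 of both lines left out.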

Additional observations from a re-analysis of the deposited data

How the results depend on the processing

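All 19 called RABs kept their direction under every alternative that tested them. Of these, 11 kept their call throughout (RAB2A, RAB3A, RAB3B, RAB3D, RAB18, RAB19, RAB27B, RAB29, RAB30, RAB32 and RAB33B), and 17 did so under all alternatives but a t-test per probe set. That t-test with Benjamini-Hochberg adjustment called 8 RABs higher and 3 lower, and 17 machinery genes higher and 7 lower. It called 3038 of all probe sets, against 5362 in the main fit. Array weights, whose iteration stopped before it converged, called 18 RABs higher and 13 lower and 44 machinery genes higher and 32 lower. Calls over all probe sets also rose with array weights, to 10078. Leaving out single replicates gave 9 to 10 RABs higher and 8 to 10 lower, and 21 to 27 machinery genes higher and 6 to 18 lower, with the 6 reached without KM12SM replicate 1 and without SW620 replicate 1. Over all probe sets these fits called 4099 to 5428. Without replicate 3 of both lines, chosen after seeing the data, the counts were 12 and 11 for RABs and 27 and 20 for machinery genes, with 6234 of all probe sets called. The other settings moved the RAB counts by at most 1, since quantile normalization and median centring added RAB2B, the robust trend added RAB7A and leaving out dim probe sets removed RAB31 from the test.

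Deviations of same-numbered arrays correlated at 0.0577, 0.0951 and 0.149, and those of differently numbered arrays at -0.142 to 0.1. The labels give only a replicate number, and whether same-numbered arrays share a batch cannot be told from these values. With the replicate number as a block, 10 RABs were higher and 9 lower, and 5681 probe sets were called against 5362 without it. KM12SM replicate 2 correlated slightly better with SW620 replicate 1 than with its own number. Signals of RAB27B and RAB3B in SW620, and of RAB31, RAB39A and RAB39B in KM12SM, were near background, which limits their folds.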
